A study of Mus musculus with 8 samples.

Results

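The potassium channel genes of the mouse ovary were taken as every row of the deposited count table whose symbol is Kcn, followed by letters and then a number. The rule found 92 of 45583 symbols, and it leaves out the antisense RNA *Kcnq1ot1*. Pore-forming subunits, silent modifiers and auxiliary subunits are all included. RNA was sequenced from whole ovaries of C57/Bl6 mice aged 3 weeks, 4 WT and 4 GOAT KO, with 1 library for each animal. GOAT KO mice lack ghrelin-O-acyltransferase (GOAT, gene *Mboat4*), the enzyme that attaches an acyl chain to the peptide hormone ghrelin, throughout life and in all cells, and WT mice were their littermates from crosses of heterozygous animals. The question was whether ovarian transcripts differ when acyl ghrelin has been absent throughout development. Counts on genes summed to between 16147216 and 19481798 per library.

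*Mboat4* had 1, 1, 1 and 3 counts in the libraries labelled WT 1118, 1119, 1120 and 1121, and 5, 7, 7 and 8 counts in those labelled GOAT KO 1139, 1140, 1141 and 1146. The direction goes against the labels, at counts under those that were tested, and which part of the gene was deleted was not compared with the reads. The study also measured *Mboat4* by quantitative PCR and reported no amplification in ovaries of juvenile GOAT KO mice, which was not analysed here. These few counts alone do not show that labels were exchanged. All directions below therefore rest on the labels, and values are always given in this order of the libraries. Ovarian cell types were present in all 8 libraries: 9 oocyte markers summed to 991 to 1211 CPM (counts scaled to library size by the TMM method), and 6 granulosa cell markers to 4372 to 5405 CPM. GOAT KO 1139 stood apart on a multidimensional scaling plot, with a first coordinate of 1.71 against -0.41 to -0.0085 for the other libraries, and its 4 adipose markers summed to 293 CPM against 8.13 to 20.7 CPM elsewhere. The study left out 1 library of each group. Its text does not name them, and results without WT 1120 and GOAT KO 1139, called the 6 libraries here, are given beside those of all 8. That pair was taken from an earlier analysis of these data and does not rest on the scaling plot, on which WT 1120 lay among the other libraries (-0.131 and 0.0257) and WT 1118 stood apart on the second coordinate (1.05 against -0.556 to 0.165).

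Potassium channels let potassium ions leave or enter a cell along their gradient and so set the resting membrane potential and shape its changes. Voltage-gated channels open on depolarisation, calcium- and sodium-activated channels open when these ions rise inside the cell, inward rectifiers pass inward current more readily than outward current, and tandem-pore-domain channels carry a background leak. In the ovary, granulosa cells, theca cells, smooth muscle and oocytes all carry potassium currents, and in other endocrine cells these currents are known to control calcium entry through voltage-gated calcium channels. Whole-ovary RNA pools all of these cells, so fewer cells of a type and less RNA per cell cannot be told apart.

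What nearly all pore-forming members share, beyond the symbol that chose them, is the selectivity filter, the lining of the pore that lets potassium pass and holds back sodium. It is coded by a glycine, a tyrosine or phenylalanine, and a glycine codon in a row. These codons (GGN, then TAT or TAC for tyrosine or TTT or TTC for phenylalanine, then GGN) were searched in frame on the coding strand only, after a codon with T as its middle base, in the GENCODE M21 transcript (GRCm38) with the longest coding sequence of each gene. They were found in 75 of the 92 members (81.5%) and in 897 of 21466 protein-coding genes (4.18%). All 30 voltage-gated members, all 10 silent modifiers, all 8 calcium- or sodium-activated members and all 15 inward rectifiers held them, as did 12 of 14 tandem-pore-domain members (not *Kcnk1* and *Kcnk7*), against 0 of 15 auxiliary subunits, which form no pore. No match says only that these letters do not follow a codon with T as its middle base in that coding sequence, and the 3 filter codons may still be there after another codon. The stretches below come from some of the most abundant pore subunits and of the members that differed between the groups in at least one fit. Capitals mark the 3 filter codons.
Kcnt1: ttctcaactgtgGGCTTCGGTgatgtgacg
Kcnt2: ttttctactgtgGGCTTTGGGgatgtcact
Kcnh2: ctcaccagcgtgGGCTTTGGCaatgtctct
Kcnk2: ctgacgaccattGGATTTGGAgactacgtg
Kcnj3: gaggccaccatcGGCTATGGCtaccgctac
Kcnma1: atgtctacagtgGGTTATGGGgacgtttat
Kcnf1: atgaccacagtgGGCTATGGTgacatctac
Kcng1: atgacaaccgtaGGCTACGGAgacatggta
Kcna7: atgaccacggttGGCTATGGGgacatggca
*Kcnt1* (chr2:25894361-25894390, plus strand), *Kcnt2* (chr1:140425272-140425301, plus), *Kcnh2* (chr5:24325546-24325575, minus) and the second pore of *Kcnk2* (chr1:189256572-189256601, minus) hold the phenylalanine form. *Kcnj3* (chr2:55437621-55437650, plus), *Kcnma1* (chr14:23528404-23528433, minus), *Kcnf1* (chr12:17175052-17175081, minus), *Kcng1* (chr2:168262632-168262661, minus) and *Kcna7* (chr7:45409455-45409484, plus) hold the tyrosine form. The phenylalanine form alone was found in 16 members, the tyrosine form alone in 51, and both in 8, all of them tandem-pore-domain genes. Of the 10 members with the highest CPM, 4 held the phenylalanine form alone (*Kcnt1*, *Kcnh2*, *Kcnt2* and *Kcnk2*), 4 the tyrosine form alone, 1 both and 1, the auxiliary subunit *Kcnip3*, neither.

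Of the 92 members, 59 reached a mean of 0.5 CPM over the 8 libraries and were tested, and 33 did not. Of the tested members, 7 had at least 50 CPM, 7 had 20 to 50 CPM, 38 had 1 to 20 CPM and 7 had 0.5 to 1 CPM. A further 29 were detected under 0.5 CPM, and *Kcna10*, *Kcnj1*, *Kcnj6* and *Kcnk9* had no count in any library, which allows up to 0.0213 CPM (3 counts of 140689706, counting error only). Just above 0.5 CPM was *Kcna1* at 0.515 CPM, and nearest below were *Kcnip4* at 0.489 CPM and *Kcnn4* at 0.448 CPM. Reads were concentrated: the 5 members with the highest CPM took 43.2% and the 10 highest 69.6% of the summed CPM of all members. A mean of at least 1 CPM would have kept 52 members.

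**Figure D1:**
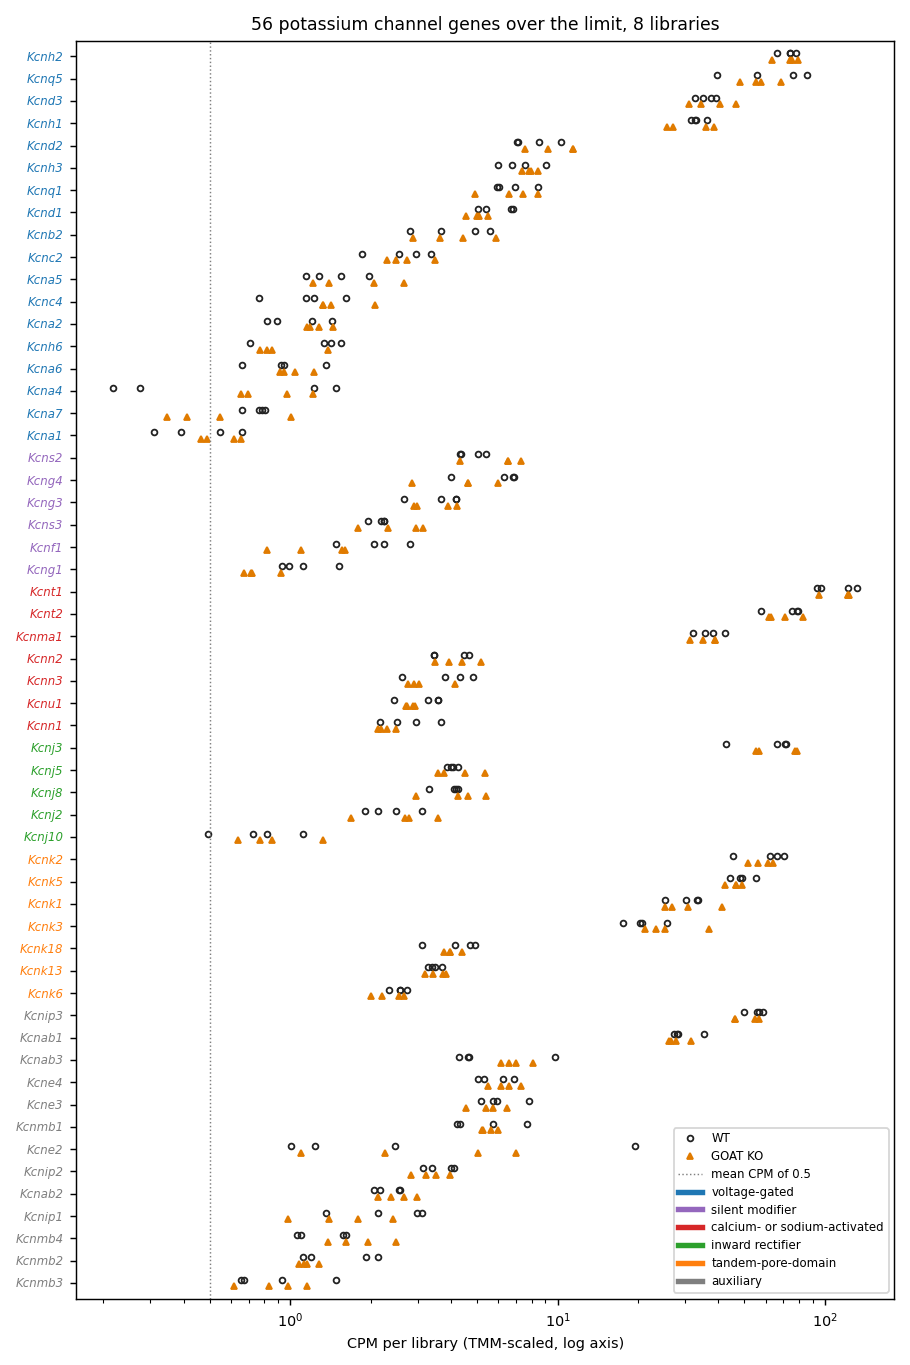
CPM of 56 of the 59 tested members in each library (log axis), grouped by class and ordered by mean CPM; open circles are the 4 libraries labelled WT, triangles the 4 labelled GOAT KO, and the dotted line marks 0.5 CPM. *Kcnt1*, *Kcnh2*, *Kcnt2*, *Kcnj3* and *Kcnq5* lie furthest right, and *Kcng1* is the only member whose circles and triangles do not overlap.

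Between genes, levels were compared per kilobase (kb) of annotated exon, since longer transcripts yield more reads. By mean CPM per kb, *Kcnh2* (15.1), *Kcnip3* (15), *Kcnk5* (14), *Kcnk1* (13.8), *Kcnj3* (12.5), *Kcnk2* (12.1), *Kcnt1* (11.9) and *Kcnt2* (10.3) led, and neighbours in that order differed by less than the larger of their SDs over libraries of a group. *Kcnq5* followed at 7.91 CPM per kb and *Kcnk3* at 6.02 CPM per kb. The divisor matters to this order: per kb of the longest transcript *Kcnip3* stood at 19.4, *Kcnh2* at 17.3, *Kcnt1* at 17.1 and *Kcnk2* at 16.7 CPM per kb. By class, tandem-pore-domain genes held 28.3% of the summed CPM per kb, voltage-gated genes 24.5%, auxiliary subunits 19.5%, calcium- or sodium-activated genes 15.5%, inward rectifiers 9.27% and silent modifiers 2.87%. No class sum separated the groups, as the plot of class sums shows.

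**Figure D2:**
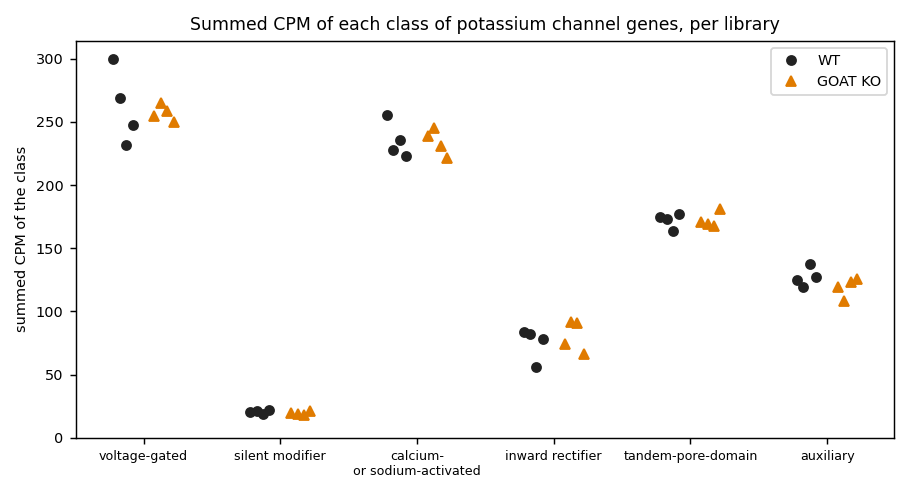
Summed CPM of each of the 6 classes per library; circles are the 4 libraries labelled WT and triangles the 4 labelled GOAT KO, with the axis starting at 0. The groups overlap in every class, and the widest WT spread is that of the voltage-gated class, from 232 to 300.2 CPM.

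Calcium- and sodium-activated channels had 8 members, of which 7 were tested, and summed to 235 ± 14.3 CPM for WT and 234 ± 10.1 CPM for GOAT KO (mean ± SD, n = 4 each). *Kcnt1* (chr2:25863734-25918273, plus strand) codes for a sodium-activated channel also called Slack, and its RNA had the most reads of any member, at 122, 96.8, 132 and 93.2 CPM in the libraries labelled WT and at 124, 122, 122 and 95.5 CPM in those labelled GOAT KO. WT 1119, WT 1121 and GOAT KO 1146 were low and the other 5 libraries high, so both groups span the same range (log2 fold change 0.06, SE 0.12, 95% interval -0.21 to 0.33). *Kcnt2* (chr1:140246158-140612067, plus strand), its close relative Slick, was at 75.6, 79.1, 57.9 and 78.9 CPM in the libraries labelled WT and at 62.7, 70.9, 61.6 and 82.5 CPM in those labelled GOAT KO. WT 1120 was the lowest of the 8 and GOAT KO 1146 the highest, and the groups overlapped (log2 fold change -0.07, SE 0.12, interval -0.33 to 0.19). *Kcnma1*, the pore of the large-conductance BK channel, averaged 37.1 ± 4.27 CPM (WT) and 36 ± 3.6 CPM (GOAT KO; mean ± SD, n = 4 each). The small-conductance SK channels *Kcnn1*, *Kcnn2* and *Kcnn3* and the alkaline-activated *Kcnu1*, best known from sperm, lay between 2.55 and 4.13 CPM.

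Tandem-pore-domain channels had 14 members, of which 7 were tested, and their sum was the steadiest of the larger classes, at 164 to 177 CPM in the libraries labelled WT and 167 to 181 CPM in those labelled GOAT KO. *Kcnk5* (chr14:20140057-20181809, minus strand), an alkaline-sensitive leak channel, was at 55.1, 48.1, 48.9 and 44.1 CPM in the libraries labelled WT and at 46.4, 46.4, 48.8 and 42.4 CPM in those labelled GOAT KO. Its groups overlapped, and its 95% interval of -0.26 to 0.08 on the log2 scale was among the narrowest (log2 fold change -0.09, SE 0.08). *Kcnk1* (chr8:125995170-126030685, plus strand), a weakly conducting leak channel, was at 25.2, 30.3, 33.2 and 33.6 CPM in the libraries labelled WT and at 25.3, 26.9, 30.7 and 41.3 CPM in those labelled GOAT KO. GOAT KO 1146 stood highest and the rest overlapped (log2 fold change 0.02, SE 0.15, interval -0.31 to 0.35). *Kcnk2*, a mechanosensitive leak channel opened by stretch and lipids, averaged 61.2 ± 11 CPM (WT) and 58.3 ± 5.41 CPM (GOAT KO; mean ± SD, n = 4 each), and *Kcnk3*, an acid-sensitive leak channel, 21.1 ± 3.4 CPM (WT) and 26.8 ± 7.02 CPM (GOAT KO; mean ± SD, n = 4 each). GOAT KO 1139 had 37 CPM of *Kcnk3*, the highest of the 8 libraries (log2 fold change 0.34, SE 0.17, edgeR adjusted p = 0.974). *Kcnk6*, *Kcnk13* and *Kcnk18* lay between 2.46 and 4.12 CPM, and the 7 untested members had at most 6 counts each over all libraries.

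Voltage-gated channels were the largest class, with 30 members and 21 tested, and summed to 262 ± 29.6 CPM for WT and 257 ± 6.29 CPM for GOAT KO. *Kcnh2* (chr5:24319589-24351604, minus strand), the hERG channel that repolarises heart muscle, was at 78, 73.9, 74.1 and 66.3 CPM in the libraries labelled WT and at 75.6, 74.4, 79.2 and 63.6 CPM in those labelled GOAT KO. Its group means were 73.1 and 73.2 CPM, and the fitted difference, 0.0029 on the log2 scale, had a 95% interval of -0.17 to 0.18. *Kcnq5* (chr1:21398403-21961942, minus strand), which carries a slow current that damps repeated firing in nerve cells, was at 86, 75.7, 39.4 and 55.7 CPM in the libraries labelled WT and at 48.1, 68.3, 57.7 and 55.5 CPM in those labelled GOAT KO. WT 1120 was lowest and WT 1118 highest, so WT values enclosed all GOAT KO values (log2 fold change -0.16, SE 0.20, interval -0.61 to 0.29). *Kcnd3*, a fast-inactivating channel, averaged 36.1 ± 2.82 CPM (WT) and 38.2 ± 6.92 CPM (GOAT KO; mean ± SD, n = 4 each), and *Kcnh1*, a slow ether-a-go-go channel, 33.4 ± 1.98 CPM (WT) and 31.8 ± 6.35 CPM (GOAT KO; mean ± SD, n = 4 each). Shaker-type channels were scarce: 6 of 8 *Kcna* genes were tested and the highest, *Kcna5*, averaged 1.66 CPM.

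Inward rectifiers had 15 members but only 5 tested, and 1 gene made up most of their sum of 75.1 ± 13.1 CPM for WT and 80.7 ± 12.6 CPM for GOAT KO. *Kcnj3* (chr2:55435970-55598145, plus strand), a subunit of channels opened by G proteins, was at 71.1, 71.6, 42.7 and 66 CPM in the libraries labelled WT and at 56.9, 77.6, 79 and 55.2 CPM in those labelled GOAT KO. WT 1120 was the lowest library and the groups overlapped (log2 fold change 0.10, SE 0.17, interval -0.28 to 0.47). *Kcnj5*, its usual partner subunit, averaged 4.04 ± 0.167 CPM (WT) and 4.3 ± 0.799 CPM (GOAT KO; mean ± SD, n = 4 each). *Kcnj8* (chr6:142564837-142571614, minus strand), the pore of the ATP-sensitive channel of blood vessel walls, was at 4.16, 3.29, 4.25 and 4.11 CPM in the libraries labelled WT and at 5.4, 4.63, 4.25 and 2.95 CPM in those labelled GOAT KO, with WT 1119 and GOAT KO 1146 low and overlap between the groups (log2 fold change 0.12, SE 0.19, interval -0.29 to 0.53). *Kcnj2*, the classical strong rectifier, and *Kcnj10*, a rectifier of glia and epithelia, had means of 2.54 and 0.843 CPM. All 5 fitted differences of this class were positive with the 8 libraries and 3 of 5 with the 6 libraries, and none passed the test. *Kcnj11*, the pore of the pancreatic ATP-sensitive channel, had 3 counts in all.

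Auxiliary subunits had 15 members, 13 of them tested, and summed to 127 ± 7.63 CPM for WT and 119 ± 7.75 CPM for GOAT KO. *Kcnip3* (chr2:127456498-127522094, minus strand), a calcium-binding partner of Kcnd channels, was at 58.7, 56.8, 49.7 and 55.6 CPM in the libraries labelled WT and at 46, 46, 56.9 and 54.7 CPM in those labelled GOAT KO. GOAT KO 1139 and 1140 were lowest, and WT 1120 lay below GOAT KO 1141 and 1146, so the groups overlapped (log2 fold change -0.12, SE 0.09, interval -0.31 to 0.08). *Kcnab1* (chr3:65109384-65378223, plus strand), a cytosolic beta subunit of Shaker-type channels, was at 27.4, 28.2, 28.1 and 35.3 CPM in the libraries labelled WT and at 26.1, 26.5, 27.8 and 31.4 CPM in those labelled GOAT KO. WT 1121 was the highest and the other 7 libraries lay between 26.1 and 31.5 CPM (log2 fold change -0.09, SE 0.10, interval -0.30 to 0.13). The single-span *Kcne* subunits *Kcne3* and *Kcne4* averaged 5.85 and 6.12 CPM, and *Kcne1*, the partner of *Kcnq1* in the heart, had 11 counts in all. All 4 beta subunits of the BK channel, *Kcnmb1* to *Kcnmb4*, were tested, with means between 0.916 and 5.51 CPM.

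Silent modifiers do not form channels alone but join Kcnb subunits and alter their gating. Of 10 members 6 were tested, and they summed to 20.5 ± 1.51 CPM for WT and 19.5 ± 1.31 CPM for GOAT KO, the lowest of the classes. *Kcng4* was at 6.33, 6.81, 3.98 and 6.85 CPM in the libraries labelled WT and at 2.85, 5.97, 4.61 and 4.63 CPM in those labelled GOAT KO. WT 1120 and GOAT KO 1139 were the lowest library of each group and the groups overlapped (log2 fold change -0.41, SE 0.23, edgeR adjusted p = 0.974). *Kcng3* was at 4.16, 4.19, 2.67 and 3.67 CPM in the libraries labelled WT and at 4.21, 3.9, 2.97 and 2.9 CPM in those labelled GOAT KO and overlapped as well (log2 fold change -0.07, SE 0.19, interval -0.50 to 0.35). *Kcns2* and *Kcns3* averaged 5.47 and 2.35 CPM, while *Kcns1*, *Kcnv1*, *Kcnv2* and *Kcng2* were under 0.5 CPM. Their partner subunit *Kcnb2* averaged 4.24 ± 1.25 CPM (WT) and 4.22 ± 1.3 CPM (GOAT KO; mean ± SD, n = 4 each).

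A gene was called where the log2 fold change exceeded 0.5 in size and the p before any adjustment was under 0.05, which are the limits of the study. With 8 libraries 2 of the 59 tested members were called (3.39%), beside 309 of 16853 genes (1.83%). Both were lower in libraries labelled GOAT KO, where 131 genes (0.777%) were called lower, and 0 members were called higher, beside 178 genes (1.06%). At a Benjamini-Hochberg adjusted p under 0.05 over all genes, edgeR called 4 genes (0.0237%) and 0 members, and the smallest adjusted p of a member was 0.974. On p under 0.05 alone there were 2 members (3.39%) and 811 genes (4.81%). The median log2 fold change was -0.0028 over the members (29 positive, 30 negative) and -0.0074 over all tested genes, and the median size regardless of sign was 0.122 and 0.0786. The 95% intervals lay within 0.5 of 0 on the log2 scale for 25 members and within 1 for 50, so for the other 9 a 2-fold difference was not bounded by these data.

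**Figure D3:**
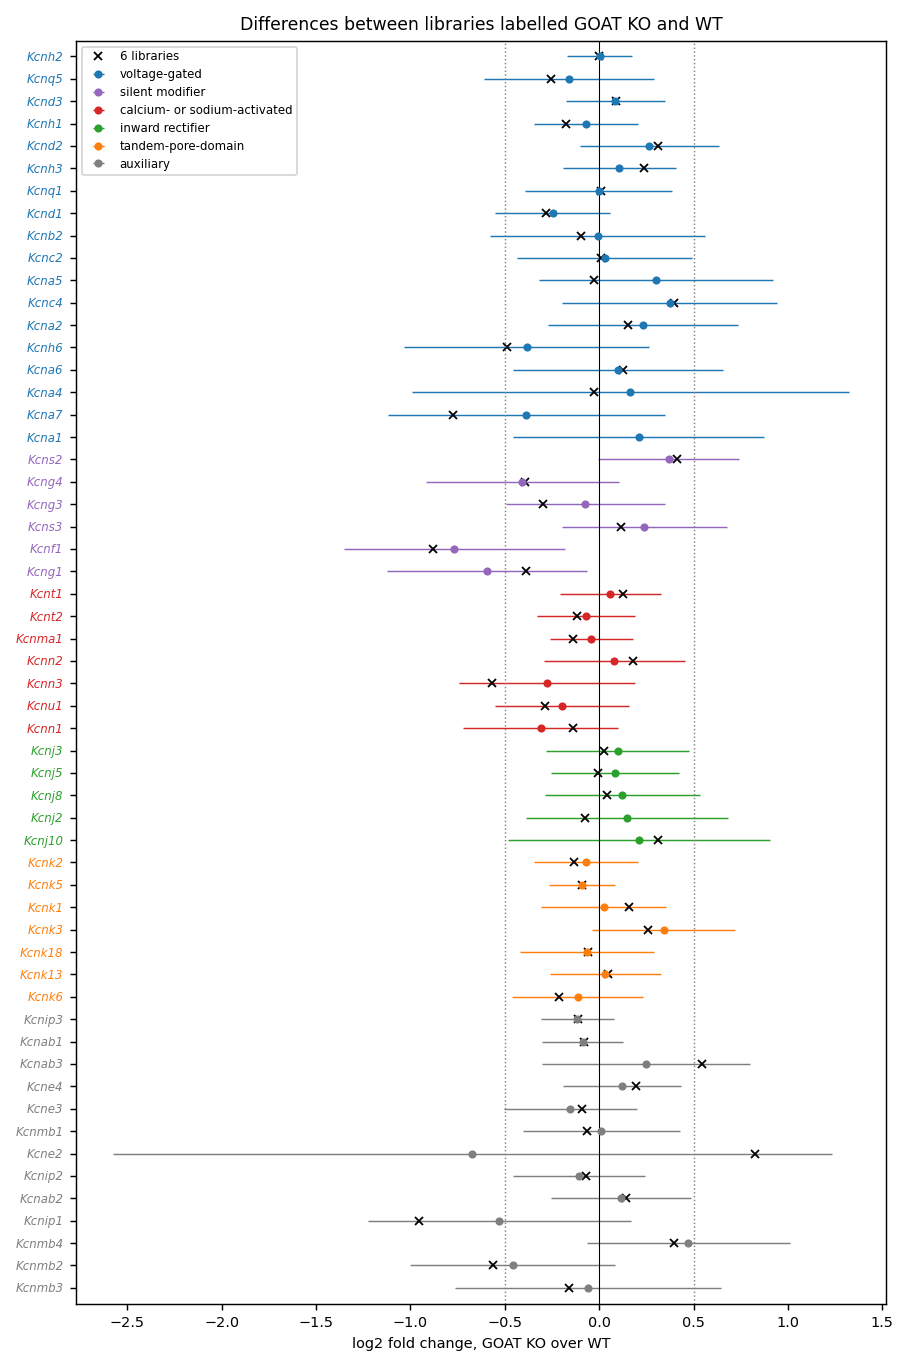
Fitted log2 fold changes of 56 of the 59 tested members, libraries labelled GOAT KO over those labelled WT; points and bars are the estimate and 95% interval from 8 libraries, coloured by class, crosses are estimates from the 6 libraries where the gene was tested, and dotted lines mark 0.5 on either side of 0. The intervals of *Kcnf1* and *Kcng1* are the only ones that exclude 0, and *Kcne2* has the widest interval, from -2.58 to 1.23.

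*Kcnf1* (chr12:17172100-17176888, minus strand) and *Kcng1* (chr2:168260117-168281736, minus strand), both silent modifiers, were the called members. *Kcnf1* was at 1.49, 2.07, 2.23 and 2.8 CPM in the libraries labelled WT and at 1.6, 1.1, 0.82 and 1.56 CPM in those labelled GOAT KO. WT 1118 was the lowest WT library and lay below GOAT KO 1139 and 1146, so the groups overlapped. The means were 2.15 ± 0.538 CPM (WT) and 1.27 ± 0.378 CPM (GOAT KO; mean ± SD, n = 4 each), a log2 fold change of -0.77 with an SE of 0.26 and an interval of -1.35 to -0.18 (edgeR adjusted p = 0.974). *Kcng1* was at 0.993, 1.12, 1.53 and 0.932 CPM in the libraries labelled WT and at 0.712, 0.67, 0.717 and 0.927 CPM in those labelled GOAT KO. All WT values lay above all GOAT KO values, the closest being 0.932 in WT 1121 and 0.927 in GOAT KO 1146. It was the only tested member without overlap (1.69%), beside 503 of all tested genes (2.98%). Its log2 fold change was -0.59 with an SE of 0.24 and an interval of -1.12 to -0.06 (edgeR adjusted p = 0.974). Both genes are scarce, with 241 and 134 counts over all 8 libraries. *Kcnf1* lost its call without WT 1121 (-0.61), and *Kcng1* without WT 1119, WT 1120, GOAT KO 1139, GOAT KO 1140 or GOAT KO 1141, with log2 fold changes between -0.61 and -0.41. DESeq2 called *Kcnf1* (-0.76) and not *Kcng1* (-0.59).

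**Figure D4:**
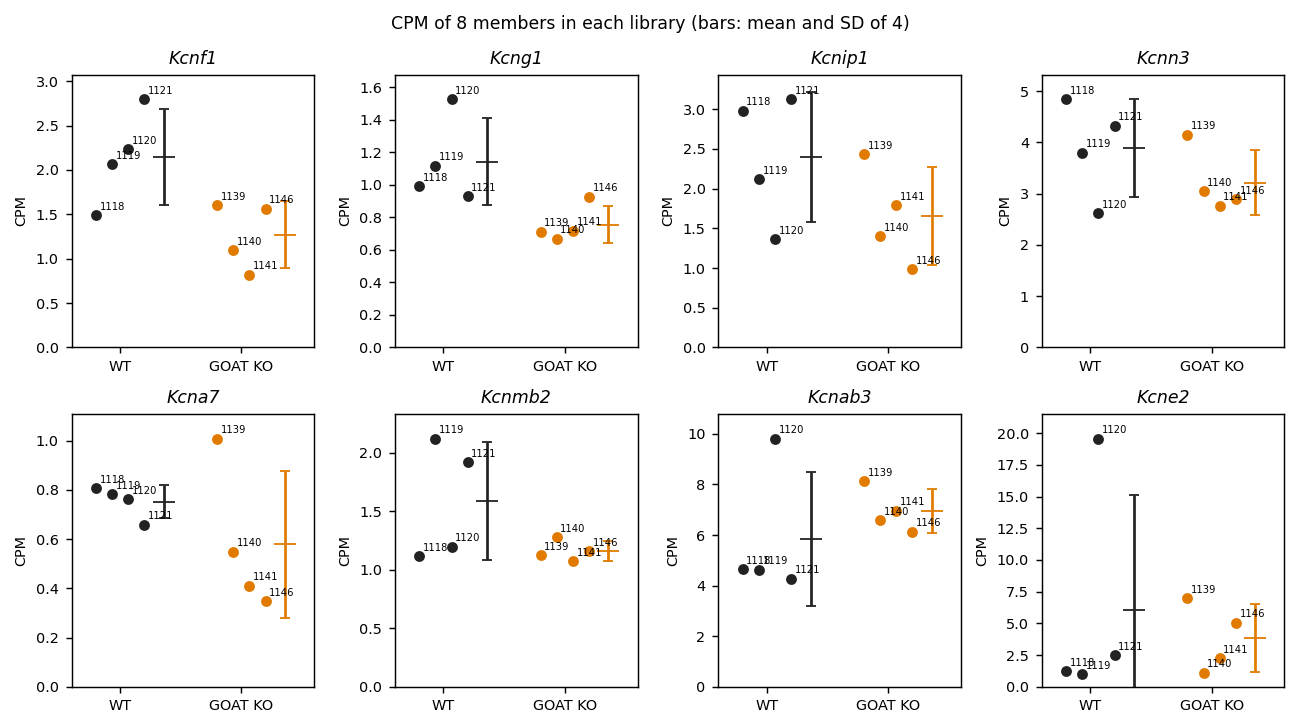
CPM of *Kcnf1*, *Kcng1*, *Kcnip1*, *Kcnn3*, *Kcna7*, *Kcnmb2*, *Kcnab3* and *Kcne2* in each library, numbered by animal, with the mean and SD of the 4 libraries labelled WT (black) and the 4 labelled GOAT KO (orange) beside them. WT 1120 stands far above the other WT libraries for *Kcnab3* (9.81 CPM) and *Kcne2* (19.6 CPM) and lowest among them for *Kcnn3* (2.62 CPM) and *Kcnip1* (1.36 CPM).

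With the 6 libraries, 5 of 59 tested members were called (8.47%), beside 410 of 16799 genes (2.44%). Of these 4 were lower (6.78%, beside 1.13% of all genes) and 1 higher (1.69%, beside 1.31%). On p under 0.05 alone there were 8 members (13.6%), beside 1571 genes (9.35%). At an adjusted p under 0.05 edgeR called 21 genes (0.125%) and 0 members, and the adjusted p of the 5 lay between 0.34 and 0.523. The group values did not overlap for 10 members (16.9%), beside 15.8% of all genes. The median log2 fold change was -0.06 over the members (25 positive, 34 negative) and -0.0027 over all genes. With WT 1118 left out in place of WT 1120, a choice made after seeing the data, 2 members were called, *Kcnf1* and *Kcna7*, beside 269 genes (1.6%). *Kcnf1* was called with the 8 and with the 6 libraries, with a log2 fold change of -0.88 and an SE of 0.31 in the 6 libraries (edgeR adjusted p = 0.455), while *Kcng1* was at -0.39 (adjusted p = 0.671).

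The 4 members called in the 6 libraries alone were *Kcnip1*, *Kcnn3*, *Kcna7* and *Kcnab3*. *Kcnip1* (chr11:33629339-33993152, minus strand), a calcium-binding partner of Kcnd channels, was at 2.98, 2.12, 1.36 and 3.12 CPM in the libraries labelled WT and at 2.43, 1.4, 1.79 and 0.984 CPM in those labelled GOAT KO. WT 1120 lay below 3 of the GOAT KO libraries, and without it and GOAT KO 1139 the groups were apart (-0.96, SE 0.26, edgeR adjusted p = 0.378, against -0.53 and adjusted p = 0.974 with 8). *Kcna7* (chr7:45405653-45409763, plus strand), a Shaker-type channel known from muscle, was at 0.807, 0.782, 0.763 and 0.658 CPM in the libraries labelled WT and at 1.01, 0.548, 0.41 and 0.347 CPM in those labelled GOAT KO. GOAT KO 1139 was the highest of all libraries and the other 3 of its group the lowest (-0.77, SE 0.34, adjusted p = 0.523 with 6, against -0.39 and adjusted p = 0.974 with 8), at 93 counts in all. At the wider limit of 0.3 on the log2 scale, used by the study for its network analysis, there were 7 members (11.9%), *Kcng4* among those added, beside 804 genes (4.79%).

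The members *Kcnab3*, *Kcnn3* and *Kcnmb2* stand in a pathway list that the study drew from these libraries, so their direction here is not independent evidence. *Kcnab3* (chr11:69326258-69333042, plus strand), a beta subunit of Shaker-type channels, was at 4.66, 4.63, 9.81 and 4.28 CPM in the libraries labelled WT and at 8.12, 6.57, 6.97 and 6.14 CPM in those labelled GOAT KO. WT 1120 had the highest value of the 8, and the other 3 WT libraries lay below all GOAT KO libraries. The log2 fold change was 0.54 with an SE of 0.14 in the 6 libraries (edgeR adjusted p = 0.34) and 0.25 with an SE of 0.25 in all 8 (adjusted p = 0.974). Its antisense RNA *Kcnab3os* overlaps its exons and had 34 counts in all, against 903 for *Kcnab3*. Whether counting used the strand is not given in the sources used here.

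*Kcnn3* (chr3:89520164-89675132, plus strand), a small-conductance calcium-activated channel, was at 4.84, 3.8, 2.62 and 4.33 CPM in the libraries labelled WT and at 4.15, 3.04, 2.77 and 2.9 CPM in those labelled GOAT KO. WT 1120 was the lowest of the 8 and GOAT KO 1139 the highest of its group, and without both the groups were apart (-0.57, SE 0.17, edgeR adjusted p = 0.416). With all 8 libraries the difference was -0.28 with an SE of 0.21 (adjusted p = 0.974). *Kcnmb2* (chr3:31902507-32200180, plus strand), a beta subunit that inactivates BK channels, was at 1.12, 2.12, 1.2 and 1.92 CPM in the libraries labelled WT and at 1.13, 1.28, 1.08 and 1.16 CPM in those labelled GOAT KO. WT 1119 and 1121 were high, and WT 1118 and 1120 lay among the GOAT KO values. It was called in neither set, at -0.46 (adjusted p = 0.974) with 8 and -0.56 (adjusted p = 0.565) with 6 libraries.

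*Kcnu1* (chr8:25849623-25937939, plus strand) was described for its position on chromosome 8, within 10 Mb of *Mboat4*. It was at 3.29, 3.57, 2.45 and 3.56 CPM in the libraries labelled WT and at 2.73, 2.92, 2.87 and 2.72 CPM in those labelled GOAT KO. WT 1120 lay below all 4 GOAT KO libraries and the other 3 WT libraries above them (log2 fold change -0.20, SE 0.16, edgeR adjusted p = 0.974).

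*Kcne2* (chr16:92292389-92298129, plus strand), a single-span subunit that accompanies Kcnq and Kcnh channels and is named here because of its spread, varied most among the 59 tested members. It was at 1.24, 1.01, 19.6 and 2.47 CPM in the libraries labelled WT and at 7.0, 1.1, 2.25 and 5.04 CPM in those labelled GOAT KO. WT 1120 had 19.6 CPM, against 2.47 CPM in the next WT library, and the coefficient of variation within groups, 134%, exceeded that of 99.8% of tested genes. The fitted difference was -0.67 with 8 libraries (SE 0.86), 0.83 with 6 and 1.29 without WT 1120 alone, where it was called higher. *Cyp19a1*, the aromatase of granulosa cells, was at 6.58, 5.08, 64.5 and 9.76 CPM in the libraries labelled WT and at 44.8, 6.82, 17.7 and 31.4 CPM in those labelled GOAT KO, and *Cyp17a1*, an enzyme of androgen synthesis in theca cells, at 50.3, 57.1, 353 and 59 CPM in the libraries labelled WT and at 596, 52.5, 42.4 and 137 CPM in those labelled GOAT KO. The same 3 libraries, WT 1120, GOAT KO 1139 and GOAT KO 1146, were highest for all 3 genes. Of the other granulosa, theca and steroidogenic cell markers examined, only *Cyp11a1* and *Star* were highest in these 3 libraries. *Amh* was lowest in GOAT KO 1146 (295 CPM) and *Hsd3b1* highest in GOAT KO 1141 (2286 CPM). The part of these cell types in the values of *Kcne2* was not tested. The 14 members with at least 20 CPM had coefficients of variation of 7.81% to 26%, with a median of 14.3%, against 10.7% over all tested genes.

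Reads across splice junctions were set against the number that even coverage would give. For 45 members at least 10 junction reads would be present if the 50-base reads lay evenly along the coding transcript. Their median was 42.9% of that number, 17 exceeded 50% and 7 lay under 10%. *Kcnk5* had 488 junction reads where even coverage gives 386, *Kcnh2* 1376 of 1672, *Kcnma1* 1558 of 2007 and *Kcnt1* 2897 of 4116. At the other end, *Kcnn3* had 2 junction reads where 59.1 would be present and *Kcng4* 1 where 57.9 would be, *Kcnb2* had 1, and *Kcnc2*, *Kcne4*, *Kcnk13* and *Kcns3* had 0. *Kcnj3* and *Kcnd3*, with 9143 and 5235 counts, reached 20.6% and 12.9% of the even number. These shares depend on the length used: *Kcnj3* has a coding transcript of 1679 bases and a longest annotated transcript of 5215, and with the longer length it reached 64% and *Kcnd3* 34.7%. With the longest transcript of each gene as divisor, a choice made after seeing the data, the median over the 45 members was 53.5%, 24 exceeded 50% and 6 lay under 10%. *Kcnn3* then had 9.76% and *Kcng4* 3.51% of the even number, and *Kcnb2* had 25.8%. How much of a low share reflects the transcript used, or reads reaching only a few bases past a junction, was not tested. Of the called members, *Kcnip1* had 24 of 60.5 and *Kcnab3* 101 of 227, while *Kcnf1* has no intron in its coding transcript and *Kcng1* and *Kcna7* had too few counts to tell. Where in the gene the remaining reads of *Kcnn3* and *Kcng4* lay was not analysed here.

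**Figure D5:**
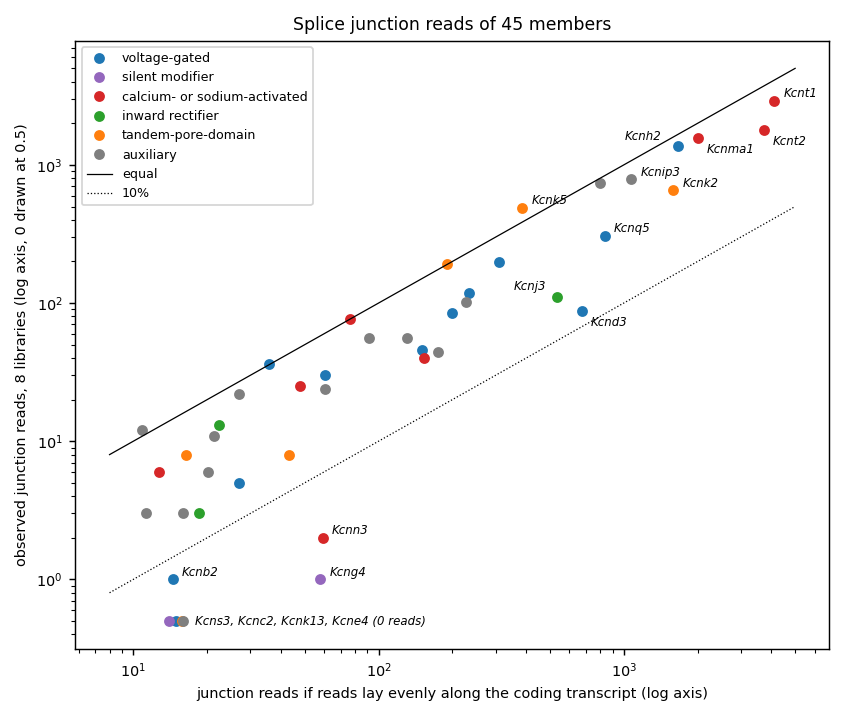
Observed splice junction reads over 8 libraries against the number present if reads lay evenly along the coding transcript, both on log axes, for the 45 members with at least 10 of the latter; the solid line marks equality, the dotted line 10%, and 0 is drawn at 0.5. *Kcnn3* and *Kcng4* lie far under the dotted line, with 2 and 1 reads, and *Kcnk5* above the solid line.

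Several members lie side by side in the genome. Of 12 pairs within 200 kb of each other, 7 had 1 member at or over 0.5 CPM and the other under it, 4 had both over and 1 both under. *Kcnk5* averaged 47.5 CPM while *Kcnk16*, 79567 bases away on chromosome 14, had 2 counts in all. *Kcnj5* averaged 4.17 CPM while *Kcnj1*, 28143 bases away on chromosome 9, had 0 counts, and *Kcne2* was tested while *Kcne1*, 47853 bases away on chromosome 16, was not. *Kcnip1* and *Kcnmb1*, on opposite strands of chromosome 11, overlap in their gene spans but share no annotated exon bases. *Kcnq1* had 964 counts and its antisense RNA *Kcnq1ot1* 2189, and the share of strand-ambiguous reads between them is unknown. *Kcnh3* shares exon bases with *Mcrs1* on the other strand, so its 1073 counts are uncertain in the same way.

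Other genes that bear on potassium currents were counted from fixed lists. The counts below stand beside 1.83% of all genes called with 8 libraries. Of 10 partners of potassium channels 5 were tested and 0 called, with a median log2 fold change of 0.0136. *Abcc9*, the sulfonylurea receptor that pairs with *Kcnj8*, was at 34.7, 31.8, 29 and 43.1 CPM in the libraries labelled WT and at 34, 27.6, 35 and 43.7 CPM in those labelled GOAT KO, with the groups overlapping. Of 14 subunits of the sodium-potassium pump, which builds the gradient that the channels use, 11 were tested and 0 called (median -0.02). Of 10 pores of voltage-gated calcium channels 8 were tested, and *Cacna1g* and *Cacna1s* were called higher, beside 1.06% of all genes (median of the list 0.0712). *Cacna1g*, a low-voltage-activated channel, was at 1.61, 1.12, 1.53 and 1.32 CPM in the libraries labelled WT and at 2.73, 1.83, 1.74 and 2.32 CPM in those labelled GOAT KO, and the groups did not overlap (log2 fold change 0.63, SE 0.21, edgeR adjusted p = 0.974). *Cacna1s*, the channel of skeletal muscle, was at 8.26, 4.52, 6.92 and 7.78 CPM in the libraries labelled WT and at 13.5, 6.94, 10.9 and 12 CPM in those labelled GOAT KO, with overlap (log2 fold change 0.66, SE 0.22, edgeR adjusted p = 0.974). The lists were drawn up with earlier results of these data known, so these counts are descriptions.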

How the data were processed

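RNA from the ovaries of 8 mice was sequenced as 50-base single reads. The authors aligned reads to mm10 (GRCm38) with TopHat 2.0.14 per the submitters' processing notes, and deposited raw counts of reads per known gene symbol, 1 column for each library, and counts of reads across each splice junction. The counting tool and its use of strand are not given in the sources used here. Assembled transcripts (StringTie 1.0.4) and mapping summaries were not used here.

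The fit used edgeR 4.0.16 under R 4.3.3 with TMM scaling, all genes with a mean of at least 0.5 CPM, and the quasi-likelihood test of GOAT KO against WT with no covariate. SEs are each log2 fold change over the root of its F statistic. Benjamini-Hochberg adjustment ran over all genes tested. The p-values set the difference between groups against the spread between animals within groups. Litter is not in the labels and was not in the fit, so its part cannot be told apart. Alternatives were RLE size factors, DESeq2 1.42.0, voom of limma 3.58.1, other filters and limits, and left-out libraries. The fits were tested on simulated data. Exon lengths, positions and coding sequences came from GENCODE M21, a later release than the authors used. Junction reads under even coverage are the counts times the introns times 49, over the length of the coding transcript. This includes reads that reach only a single base past a junction. The number is too high if the aligner needed more, and its setting is not given in the sources used here. No 2 libraries of a group agreed within sampling noise (chi-square per gene 4.22 to 27.1).

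The genes described in full were those called with 8 or 6 libraries, those of the study's pathway list, the 2 highest per kb of each class, the 5 highest by CPM, those nearest 0.5 CPM, 1 by its position, and those without overlap. Others were named after their values were seen. Some genes and sequences that these rules chose are not reported here. The members, lists and alternatives were chosen with earlier results of these data known.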

Additional observations from a re-analysis of the deposited data

Results flagged for a closer look

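Among 118 sets of 4 libraries of 1 group, 1 set for each group of each tested member, 8 had a library set apart from the other 3 by Dixon's criterion, where chance gives about 1 in 20 (5.9). *Kcnab3* stood at 9.81 CPM in WT 1120 against 4.28 to 4.66 CPM in the other WT libraries. *Kcne2* stood at 19.6 CPM in WT 1120 against 1.01 to 2.47 CPM. *Kcnt2* stood at 57.9 CPM in WT 1120 against 75.6 to 79.1 CPM. *Kcnab1* was at 35.3 CPM in WT 1121 and between 27.4 and 28.2 CPM in the other WT libraries, and *Kcnj8* at 3.29 CPM in WT 1119 against 4.11 to 4.25 CPM. In the libraries labelled GOAT KO, *Kcnt1* was at 95.5 CPM in animal 1146 against 122 to 124 CPM, *Kcnh6* at 1.39 CPM in animal 1146 against 0.771 to 0.852 CPM, and *Kcnc4* at 2.07 CPM in animal 1140 against 1.33 to 1.42 CPM.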

How the results depend on the processing

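The count of called members, 2 with 8 libraries (0 higher, 2 lower), depended on the libraries and limits. Among all genes 1.83% were called. DESeq2 called 1 (1 lower; 1.34% of all genes), and without a filter on low counts 3 of 88 members were called (2.52% of all genes), 1 of them higher, *Kcnj9*, which had 9 counts in all. The 6 libraries gave 5 (1 higher, 4 lower; 2.44% of all genes), and 6 with WT 1118 left out in place of WT 1120, added after seeing the data, gave 2 (1.6%). At an adjusted p under 0.05 edgeR called 0 members, 0 of them lower, with 2 at an unadjusted p under 0.05. Alternatives added after seeing the data gave 7 (1 higher, 6 lower) for the 6 libraries at 0.3, and 0 (0 lower) for the 6 libraries and for DESeq2 at an adjusted p under 0.05. Leaving out each library in turn gave 1 to 6 called members, 0 to 2 higher and 1 to 4 lower, with 6 without WT 1120 (2.61% of all genes) and 1 without WT 1119 (1.64%) or WT 1121 (1.81%). Over these 8 sets 1.35% to 2.61% of all genes were called. RLE size factors, voom and filterByExpr kept the count at 2, and 59 members reached the limit of 0.5 CPM with plain library totals, filterByExpr and, added after seeing the data, the 6 libraries.

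Directions reversed for members near 0 or resting on 1 library: in the 6 libraries *Kcne2* (0.827) and *Kcnh2* (-0.000731), and with voom *Kcne2* (0.0902). Leaving out a library turned the sign of *Kcnab1* (range -0.149 to 0.00462), *Kcne2* (-1.14 to 1.29), *Kcng3* (-0.192 to 0.00576), *Kcnh2* (-0.0405 to 0.0644), *Kcnj3* (-0.041 to 0.181), *Kcnj8* (-0.00331 to 0.265), *Kcnk1* (-0.145 to 0.109), *Kcnq5* (-0.328 to 0.01) and *Kcnt1* (-0.0163 to 0.162). *Kcnf1* kept its sign, between -0.905 and -0.597, as did *Kcng1*, between -0.703 and -0.411. The cause was not tested. No paired analysis was possible because the labels give no litter or other pairing of animals. Intervals and limits at 0 counts cover counting error only where they rest on counts of 1 library or a sum, and members under 0.5 CPM were not tested.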

Other observations

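*Kcna4* (chr2:107290639-107298502, plus strand), a fast-inactivating Shaker-type channel named after its values were seen, was at 1.49, 1.23, 0.218 and 0.274 CPM in the libraries labelled WT and at 0.652, 1.22, 0.973 and 0.695 CPM in those labelled GOAT KO. WT 1118 was the highest and WT 1120 and 1121 the lowest of the 8 libraries, and its coefficient of variation within groups, 58.9%, exceeded that of 99.1% of tested genes.

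*Kcnmb4*, *Kcns2* and *Kcnk3*, also named after their values were seen, had differences of some size but were called in neither set of libraries. They are not the full list of such members. With 8 libraries *Kcne2* (-0.67), *Kcnmb2* (-0.46), *Kcng4* (-0.41) and *Kcnh6* (-0.38) were lower and *Kcnc4* (0.37) higher, also without a call in either set. *Kcnmb4*, the neuronal beta subunit of the BK channel, was at 1.61, 1.06, 1.58 and 1.1 CPM in the libraries labelled WT and at 2.49, 1.95, 1.38 and 1.62 CPM in those labelled GOAT KO (log2 fold change 0.47, SE 0.24, interval -0.07 to 1.01). *Kcns2* was at 4.34, 4.3, 5.4 and 5.04 CPM in the libraries labelled WT and at 6.52, 4.32, 6.51 and 7.3 CPM in those labelled GOAT KO (log2 fold change 0.37, SE 0.17, interval -0.0040 to 0.74). *Kcnk3* was at 20.7, 17.6, 25.8 and 20.3 CPM in the libraries labelled WT and at 37, 25.3, 21.3 and 23.4 CPM in those labelled GOAT KO (log2 fold change 0.34, SE 0.17, interval -0.04 to 0.72). The groups overlapped for *Kcnmb4*, *Kcns2* and *Kcnk3* with 8 libraries.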
